A study of Drosophila melanogaster with 34 samples.

Results

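A group of 95 uncharacterised fly genes stood high in Drosophila melanogaster embryos that had been lit throughout the nuclear cycles (NC) 10 to 14. The 95 were chosen by a rule on measured levels. The symbol had to be CG followed by digits, which is how FlyBase names predicted genes that have no descriptive name. Levels were in CPM, the counts of a gene divided by the total of its library and multiplied by 1000000, and log2 values had 0.5 CPM added. The mean had to be at least 5 CPM in wild type lit during NC10-14. It also had to exceed that in wild type lit during NC13-14 by at least 1.5 on the log2 scale, and in CRY2-ZLD lit during NC10-14 it had to exceed that in CRY2-ZLD without light by at least 1. Of the 17491 genes in the table, 6043 had such a symbol, 1439 of these reached the level and 107 also met the wild-type threshold. The same thresholds were met by 218 of the 4040 genes with other kinds of name that reached the level, or 5.4%, against 6.6% of the CG genes.

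The libraries were made from poly(A) RNA of single embryos, each collected 30 minutes into NC14, and every embryo carried His2AvRFP, a red fluorescent histone used to see the nuclear cycles. Wild type means His2AvRFP alone, and CRY2-ZLD embryos carried in addition a Zelda protein joined to CRY2, a photoreceptor taken from plants, whose clusters form in blue light and inactivate Zelda. Stocks were kept at 25 °C, embryos had their outer shell removed in bleach, and blue light of 488 nm was given on a microscope with brief 587 nm imaging. Both genotypes were lit during NC10-14 (3 embryos each), NC10-12, NC13-14 or NC14 (4 embryos each), and a further 4 CRY2-ZLD embryos had no blue light. Unlit wild-type embryos, unfertilised eggs and younger embryos were not analysed here, so whether a transcript was put into the egg by the mother or made by the embryo was not measured.

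Early fly embryos run on RNA and protein loaded by the mother, and pass control to their own genome in the maternal-to-zygotic transition. Zelda is a pioneer factor that binds many early promoters and enhancers and opens them for the first zygotic transcription. Maternal RNAs are removed in the same period, in part by Smaug, the RNA-binding product of smg, which recruits a deadenylase to its targets. The 95 genes are all protein coding, and the files give them no function.

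Library totals ran from 4382299 to 41210334 counts. Earlier work on these data set 5 libraries apart. In wild type these are NC13-14 replicate 4 (the lowest total), NC10-14 replicate 2 and NC14 replicate 3, and in CRY2-ZLD they are replicates 3 and 4 of NC10-12. By their file labels, the libraries lit during NC14 were numbered as a set of their own, as were those lit during NC10-12. All others shared another numbering, in which replicates 1 and 2 came ahead of replicates 3 and 4. The eggshell and follicle cell markers, which would mark maternal tissue, reached at most 4.07 summed CPM over 17 genes in any library, and 14 of the 17 were at 0 in wild type NC10-14. The 18 testis markers reached at most 30.5 summed CPM, nearly all from mia. Among early zygotic genes, slam (cellularization) stood at 2697 to 7885 CPM in wild type NC10-14 and at 338 to 463 CPM in CRY2-ZLD NC10-14. The zld transcript was measured at 656 to 962 CPM and 969 to 1078 CPM in these groups. The pair-rule gene ftz stood at 270, 19.2 and 260 CPM in wild type NC10-14, with replicate 2 as the low embryo, and at 0.144 to 0.868 CPM in CRY2-ZLD NC10-14.

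The summed level of the 95 genes set the NC10-14 embryos apart in both genotypes, in the contrasts that chose them. In wild type NC10-14 the 3 embryos held 4675, 7386 and 3777 summed CPM, and in wild type NC13-14 the 4 embryos held 1057, 1091, 1266 and 1611. CRY2-ZLD NC10-14 embryos held 7227, 7003 and 9336 summed CPM, and unlit CRY2-ZLD embryos held 1398, 1151, 991 and 899. In both genotypes the groups did not overlap, and CRY2-ZLD NC10-14 replicate 4 and wild type NC10-14 replicate 2 were the highest of their groups. As bulk RNA of a whole embryo was measured, fewer cells of a type and less RNA per cell cannot be told apart.

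**Figure D1:**
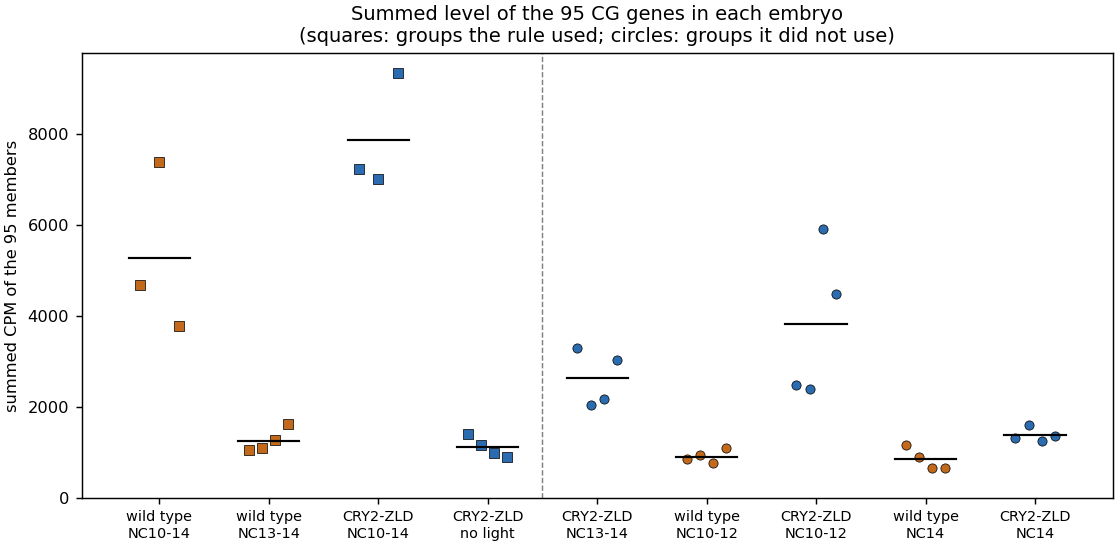
Summed CPM of the 95 members (y axis) in each of the 34 embryos, by genotype and light window (x axis); each point is an embryo, the line is the group mean, squares mark the groups used to choose the members and circles the groups not used. The NC10-14 groups are highest (3777 to 9336), CRY2-ZLD NC10-12 lies at 2381 to 5911, and wild type NC10-12 lies at 767 to 1083.

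Because the members were chosen on these groups, the following values describe them and are not a finding. On the rule's scale the wild-type difference ran from 1.5 to 3.74 with a median of 1.93, and the CRY2-ZLD difference from 1.11 to 5.88 with a median of 2.72. Between wild type NC10-14 and NC13-14, 94 members had no overlap of libraries, where 20% of the 9519 genes tested had none, and between lit and unlit CRY2-ZLD the count was 94 against 23.4%. Of the 95, 82 had their highest group mean in CRY2-ZLD NC10-14 and 13 had it in wild type NC10-14. Just inside the threshold lay CG5180 (1.5) and CG10731 (1.52), and just outside lay CG9175 (1.4978) and CG5886 (1.4947). Wild type NC10-14 replicate 2 was the highest of its 3 embryos for 92 members, and the share of all genes highest there was not counted. Without wild type NC10-14 replicate 2 the rule kept 55 members, all among the 95. Without both that embryo and wild type NC13-14 replicate 4 it kept 64, of which 63 were among the 95.

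The members covered a wide range of levels. Mean levels in wild type NC10-14 ran from 5.01 to 510 CPM with a median of 26.7, with 15 members under 10 CPM and 17 at 100 CPM or more. Per kilobase of exon, the scale on which genes can be set side by side, they ran from 1.07 to 113 CPM per kb with a median of 16.4. CG10492 was the highest per kb (113), followed by CG12567 (104), CG44005 (88.2), CG32512 (81.8), CG3679 (74.4) and CG7530 (70.4).

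CG10492 (FBgn0032748, chromosome 2L, 19054078 to 19058821, plus strand, assembly dm6), a gene with 2 introns, was the member with the highest CPM. It stood at 495, 666 and 371 CPM in wild type NC10-14 and at 134, 141, 172 and 179 CPM in wild type NC13-14. In CRY2-ZLD it stood at 519, 492 and 682 CPM with light during NC10-14 and at 136, 102, 130 and 82.1 CPM without light. The high embryos were those lit for the whole period, in both genotypes, and the remaining embryos of these groups lay below them without overlap.

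CG12567 (FBgn0039958, chromosome 2L, 23161122 to 23174484, minus strand) combined a high level with the largest wild-type difference of the rule, 3.74. Its levels were 248, 364 and 114 CPM in wild type NC10-14 against 15.2, 14.4, 10.8 and 30.1 CPM in wild type NC13-14. In CRY2-ZLD they were 554, 537 and 386 CPM with light during NC10-14 against 57.8, 55.7, 13.7 and 11.7 CPM without light. The unlit embryos thus fell into a higher pair, replicates 1 and 2, and a lower pair, replicates 3 and 4. The pairs also differed in the share of counts from mitochondrial large ribosomal RNA, 7.77% and 7.59% in the higher and 0.58% and 1.46% in the lower. Replicates 1 and 2 had the higher share in every group that shared their file numbering. In replicate order it was 6.18%, 6.18% and 0.98% in wild type NC10-14 and 7.18%, 7.28% and 1.54% in CRY2-ZLD NC10-14. It was 6.03%, 6.05%, 1.13% and 1.35% in wild type NC13-14 and 6.4%, 7.08%, 3.07% and 2.0% in CRY2-ZLD NC13-14. The part of this split in the levels was not tested. CG32365 (FBgn0052365, chromosome 3L, 7869042 to 7894814, plus strand) had the next largest wild-type difference, 3.73, with 78.5, 152 and 45.5 CPM in wild type NC10-14 and 2.18, 3.35, 5.27 and 15.1 CPM in NC13-14. Its CRY2-ZLD difference of 5.88 was the largest of the 95, from 5.09, 2.97, 1.17 and 2.96 CPM without light to 181, 237 and 207 CPM. No embryo of either NC10-14 group overlapped the NC13-14 or unlit group it was compared with, and wild type NC13-14 replicate 4 was the highest of the low embryos.

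The other members with large wild-type differences were CG18135 (3.49), CG7460 (3.46), CG13716 (3.27), CG5850 (3.12), CG44005 (3.09) and CG13760 (3.07). CG13716 (FBgn0035563, chromosome 3L, 4634436 to 4634789, minus strand) has no intron and the shortest exon length of those named, 354 bases. It was the only one of these 6 whose embryos did not overlap between the genotypes under the same long light, with 9.92, 14.0 and 13.2 CPM in wild type NC10-14 and 3.33, 2.63 and 3.15 CPM in CRY2-ZLD NC10-14. The wild-type embryos were the higher ones, whereas for 82 of the 95 members the mean was higher in CRY2-ZLD NC10-14 than in wild type NC10-14. By edgeR's fit 74 members lay above 0 between these groups, with a median log2 difference of 0.32 against 0.06 over all genes tested. The share of all genes with such a mean was not counted. Both groups were used to choose the members, so these values are description only. CG5850 shares 46.3% of its exon bases with CG4658 and antisense RNAs, and the counting had no strand option, so reads from these genes cannot be told apart from its own.

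**Figure D2:**
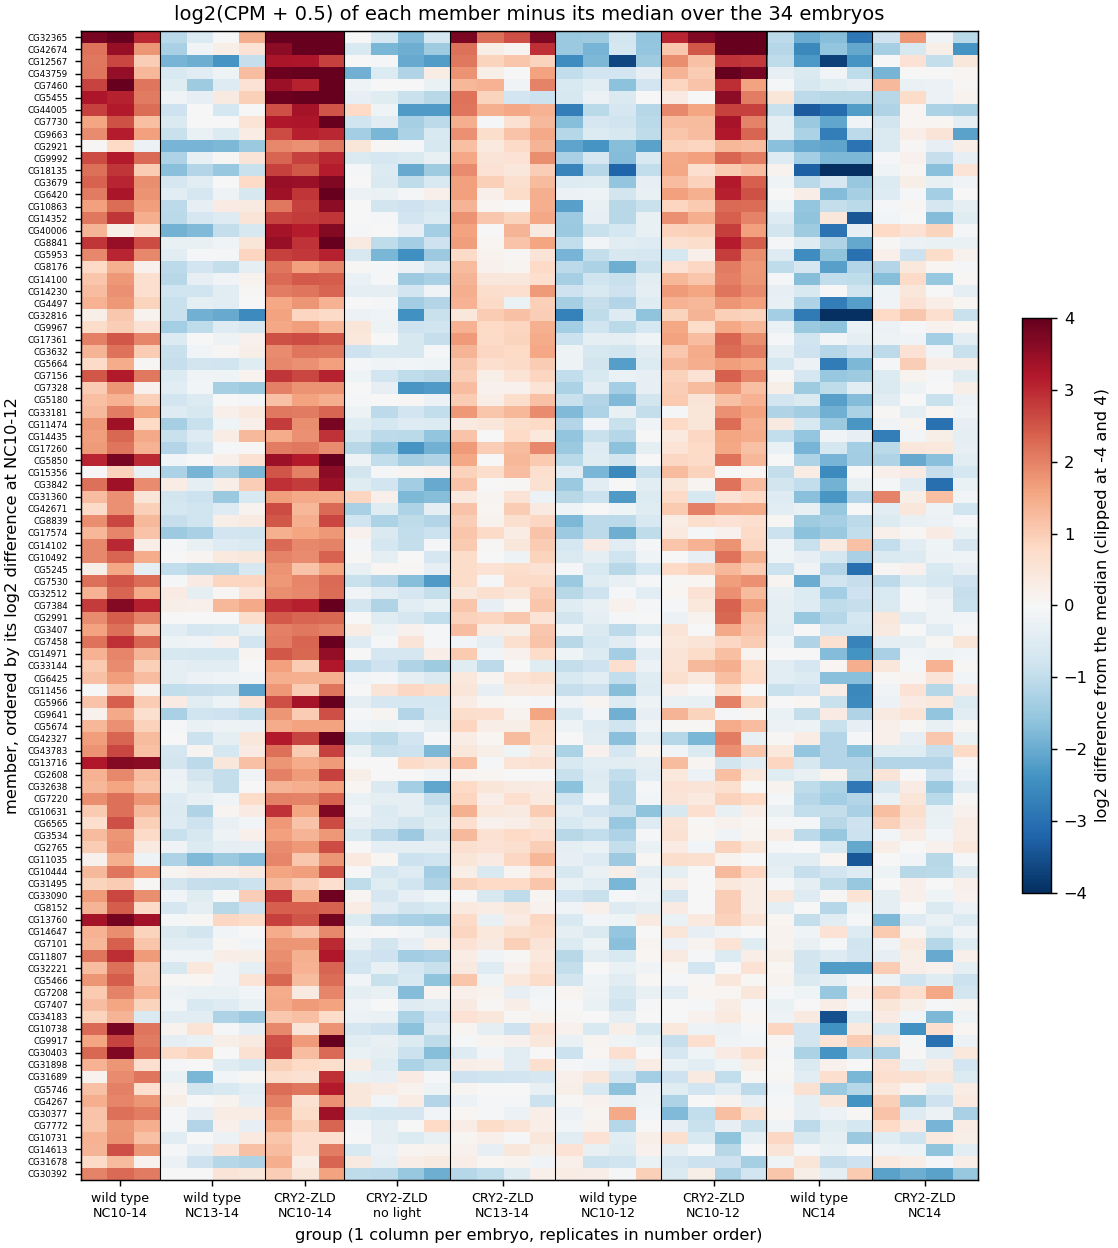
Each row is a member and each column an embryo, grouped by genotype and light window (x axis); colour is log2(CPM + 0.5) minus the member's median over the 34 embryos, from blue (lower) to red (higher), and rows are ordered by the log2 difference between CRY2-ZLD and wild type at NC10-12. Nearly all rows are red in both NC10-14 groups, and in CRY2-ZLD NC10-12 replicates 3 and 4 are redder than replicates 1 and 2 in many rows.

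Light during NC10-12, with the light off from NC13 on, gave embryos that the rule did not use. Here the members were higher in CRY2-ZLD than in wild type, and 62 of the 95 rose while 0 fell, where 16.9% of all genes tested were called higher and 16.5% lower (edgeR's quasi-likelihood test, adjusted p under 0.05 over 9519 genes). The median log2 difference of the members was 1.69, and that of all genes tested was -0.01. Values ran from -1.22 to 6.29, with 85 members above 0 and 10 below. For 57 members every CRY2-ZLD embryo lay above every wild-type embryo, where 16.6% of all genes did so, and 56 of these 57 were among the 62 called.

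In summed level the wild-type embryos lit during NC10-12 held 841, 931, 767 and 1083 CPM and the CRY2-ZLD embryos held 2472, 2381, 5911 and 4472. All 4 CRY2-ZLD embryos were above all wild-type embryos, and replicates 3 and 4 were well above replicates 1 and 2. For 56 members both of replicates 3 and 4 exceeded both of the others. The share of all genes that did so was not counted, so this number is description only. Without replicates 3 and 4, 36 members rose and 1 fell (CG30377), where 7.99% of genes were called higher, and the members' median was 1.04. Without all 5 libraries set apart, 37 rose and 1 fell, where 8.91% were called higher. CRY2-ZLD replicates 1 and 2 alone lay above every wild-type embryo for 60 members, against 28.2% of all genes. Of the 55 members that the rule kept without wild type NC10-14 replicate 2, 40 were among the 62 called, and of the 40 it lost 22 were.

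CG2921 had the smallest p of the members in this comparison (FBgn0034689, chromosome 2R, 22073538 to 22075308, minus strand). It stood at 3.97, 3.26, 5.35 and 3.87 CPM in wild type and at 36.1, 34.4, 47.9 and 44.7 CPM in CRY2-ZLD. All 4 CRY2-ZLD embryos were high and close together, the groups being far apart (log2 difference 3.34 ± 0.32 (SE), adjusted p = 1.11e-08). In unlit CRY2-ZLD, CG2921 stood at 26.4, 19.2, 18.1 and 11.8 CPM, above the 4.76, 4.77, 4.97 and 6.39 CPM of wild type NC13-14. These groups differ in both genotype and light. Such a separation of unlit CRY2-ZLD above wild type NC13-14 was seen for 7 members, against 16.6% of all genes, and both groups were used to choose the members.

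CG14230 (FBgn0031062, chromosome X, 19704176 to 19706417, plus strand) stood at 17.8, 20.5, 17.5 and 24.1 CPM in wild type and at 104, 96.5, 141 and 120 CPM in CRY2-ZLD. The CRY2-ZLD embryos lay within a narrow range far above wild type (2.56 ± 0.28, adjusted p = 1.09e-07). CG32365 stood at 1.53, 1.63, 2.95 and 1.39 CPM in wild type and at 46.0, 72.7, 245 and 188 CPM in CRY2-ZLD, the largest difference of any member (6.29 ± 0.80, adjusted p = 9.17e-07). Its replicates 3 and 4 were the high ones, and without them the difference was 4.83 (adjusted p = 5.45e-05). CG9992 (FBgn0030744, chromosome X, 16381954 to 16384908, minus strand) rose from 6.03, 9.51, 4.37 and 9.97 CPM to 45.0, 49.5, 79.2 and 65.4 CPM (3.05 ± 0.39, adjusted p = 1.15e-06). Again no CRY2-ZLD embryo overlapped wild type, and replicates 1 and 2 alone were several fold above it.

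Among the members with the highest levels, CG12567 rose from 9.81, 16.1, 4.10 and 20.8 CPM to 208, 130, 425 and 406 CPM (4.62 ± 0.65, adjusted p = 3.90e-06). Every CRY2-ZLD embryo exceeded every wild-type embryo several fold, and without replicates 3 and 4 the difference was 3.60 (adjusted p = 0.00032). CG3679 (FBgn0027521, chromosome X, 16303870 to 16307377, plus strand) rose from 29, 29.5, 13.6 and 33.3 CPM to 98.2, 80.1, 378 and 222 CPM (2.99 ± 0.44, adjusted p = 7.61e-06). CG3679 shares 14.5% of its exon bases with other genes, an antisense RNA among them. CG8176 (FBgn0037702, chromosome 3R, 9516007 to 9527237, plus strand) rose from 49.4, 42.7, 26.4 and 54.7 CPM to 153, 182, 435 and 344 CPM (2.77 ± 0.38, adjusted p = 3.30e-06). CG33181 (FBgn0053181, chromosome X, 8489348 to 8517029, plus strand) rose from 13.8, 20.2, 39.1 and 24.7 CPM to 46.6, 67.6, 173 and 149 CPM (2.22 ± 0.37, adjusted p = 3.40e-05). For CG3679, CG8176 and CG33181 the groups did not overlap, replicates 3 and 4 were the highest CRY2-ZLD embryos, and the call held without them.

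For other high members the call was lost without replicates 3 and 4. CG10492 stood at 87.7, 99.4, 75.6 and 115 CPM in wild type NC10-12 and at 133, 106, 595 and 354 CPM in CRY2-ZLD. The first pair of CRY2-ZLD embryos lay at the top of the wild-type range or just above it and the second pair far above it (1.76 ± 0.38, adjusted p = 0.000623, and 0.19 with adjusted p = 0.707 without replicates 3 and 4). CG2991 (FBgn0031474, chromosome 2L, 2857164 to 2868548, plus strand) went from 22.5, 29.5, 35.9 and 38.2 CPM to 32.5, 42.5, 188 and 93.2 CPM (1.59 ± 0.39, adjusted p = 0.00204). Without the pair its difference was 0.09 (adjusted p = 0.886), and without replicate 3 alone it was 0.87 (adjusted p = 0.0533). CG7530 (FBgn0038256, chromosome 3R, 14724760 to 14731509, minus strand) went from 12.8, 26.3, 29.9 and 34.6 CPM to 38.3, 38.5, 119 and 132 CPM (1.75 ± 0.43, adjusted p = 0.00233). CG32512 (FBgn0052512, chromosome X, 21062277 to 21067540, minus strand) went from 26.6, 32.9, 56.4 and 43.7 CPM to 62.4, 87.4, 209 and 142 CPM (1.71 ± 0.33, adjusted p = 0.000204). Neither group pair overlapped, but without replicates 3 and 4 the differences were 0.41 (adjusted p = 0.557) for CG7530 and 0.74 (adjusted p = 0.109) for CG32512. In all, 26 of the 62 calls were lost when this pair of embryos was left out, which also reduces the CRY2-ZLD group to 2. All 26 kept a log2 difference above 0, from 0.09 to 1.52, and their median went from 1.7 to 0.83. For 12 of them the log2 difference fell below 0.5 of its value with all embryos, and for others it hardly moved, as for CG3534 (1.0 with all embryos and 1.04 without the pair).

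**Figure D3:**
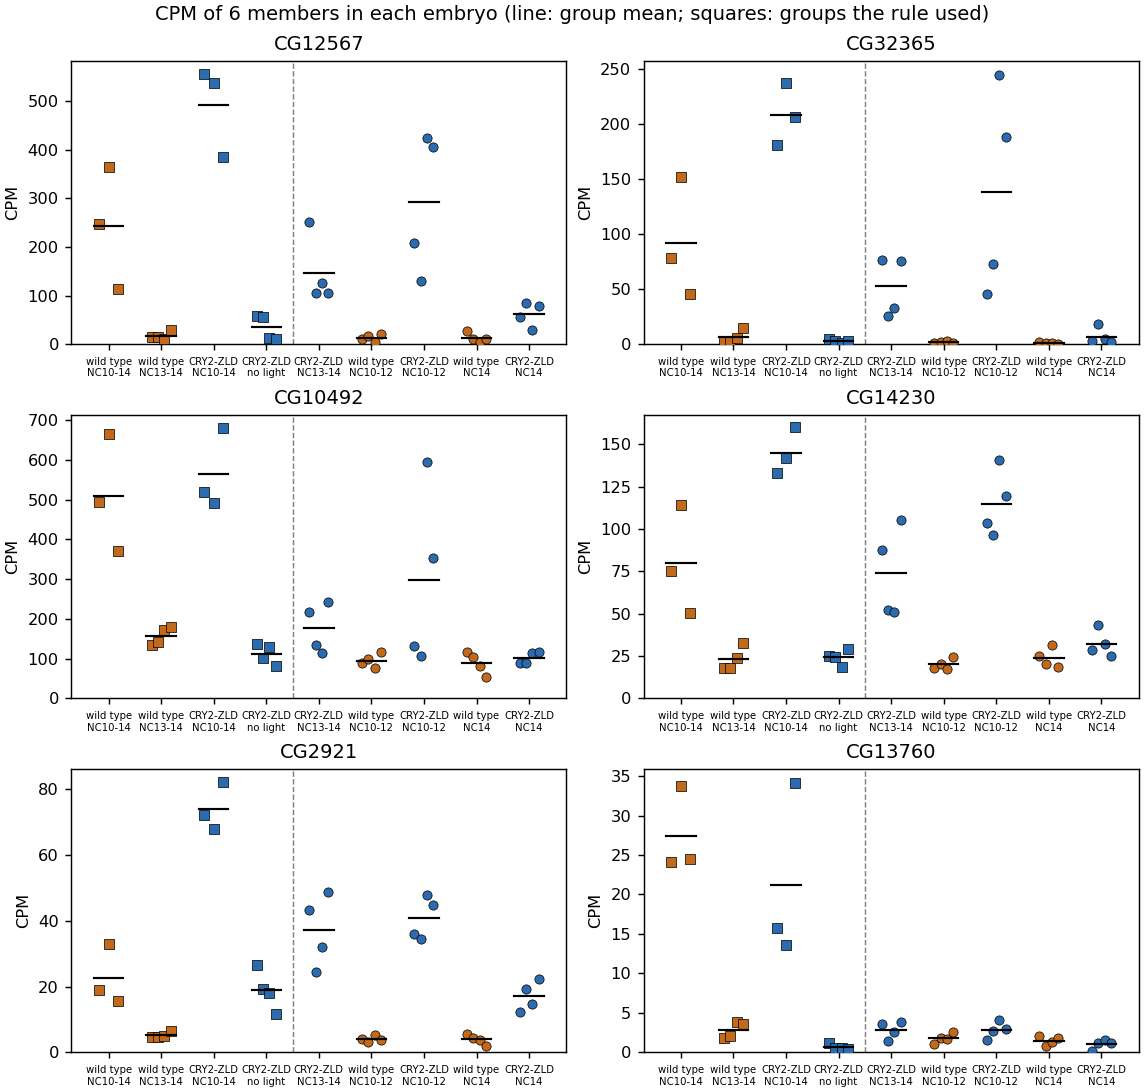
CPM (y axis, linear from 0) of CG12567, CG32365, CG10492, CG14230, CG2921 and CG13760 in each embryo, by genotype and light window (x axis); lines are group means and squares mark the groups used to choose the members. CG2921 and CG14230 are high in all 4 CRY2-ZLD NC10-12 embryos, CG10492 is high in 2 of them (595 and 354), and CG13760 stays at or below 4.07 in all.

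Members with the largest wild-type differences of the rule also rose at NC10-12, with exceptions. CG44005 (FBgn0264747, chromosome 3L, 18070300 to 18072123, minus strand) went from 2.20, 8.16, 11.1 and 7.85 CPM to 69.7, 54.2, 123 and 121 CPM (3.69 ± 0.66, adjusted p = 7.57e-05). CG18135 (FBgn0036837, chromosome 3L, 18990026 to 18998283, minus strand) went from 2.44, 7.88, 1.53 and 8.93 CPM to 54.1, 28.9, 38.1 and 43.0 CPM (3.0 ± 0.85, adjusted p = 0.00697). In contrast to most members, its highest CRY2-ZLD embryo was replicate 1. CG7460 (FBgn0036749, chromosome 3L, 17740540 to 17742540, plus strand) has no intron and went from 0.527, 0.652, 0 and 0.425 CPM to 2.35, 2.93, 11.7 and 4.32 CPM (3.80 ± 0.75, adjusted p = 0.000234). CG5850 (FBgn0032172, chromosome 2L, 9959248 to 9963949, minus strand) went from 2.97, 4.8, 3.93 and 6.73 CPM to 12.7, 12.0, 32.9 and 17.8 CPM (2.1 ± 0.47, adjusted p = 0.000884). The groups did not overlap for any of CG44005, CG18135, CG7460 and CG5850, though CG5850 lost its call without replicates 3 and 4 (1.27, adjusted p = 0.0794).

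The remaining 33 members did not pass at NC10-12, and 17 of them had a log2 difference under 0.5. CG13760 (FBgn0040375, chromosome X, 2583745 to 2585699, minus strand) stood at 1.10, 1.77, 1.64 and 2.63 CPM in wild type and at 1.53, 2.70, 4.07 and 2.99 CPM in CRY2-ZLD (0.71 ± 0.48, adjusted p = 0.269). The groups overlapped, and all 8 values lay far below the 24.1, 33.7 and 24.4 CPM of wild type NC10-14 and the 15.8, 13.5 and 34.2 CPM of CRY2-ZLD NC10-14. CG13716 stood at 0.239, 0.326, 0.328 and 0.387 CPM in wild type and at 2.24, 0.721, 0.182 and 0.324 CPM in CRY2-ZLD (1.31 ± 1.05, adjusted p = 0.359). CG30392 (FBgn0050392, chromosome 2R, 21290914 to 21292181, minus strand) had the lowest difference, -1.22 ± 0.60 (adjusted p = 0.119), with 2.20, 2.14, 1.58 and 3.79 CPM in wild type and 0.969, 2.07, 0.437 and 0.791 CPM in CRY2-ZLD. For both CG13716 and CG30392 the groups overlapped, and all 16 values lay below the wild type NC10-14 levels.

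The other 71 members are given by their range. A further 20 rose with and without replicates 3 and 4, from CG43759 (4.41, adjusted p = 5.55e-05) down to CG9641 (1.35, adjusted p = 0.0364), with a median of 2.35. A further 21 rose but lost the call without that pair of embryos, from CG5455 (3.76, adjusted p = 0.0137) down to CG31495 (0.86, adjusted p = 0.018), with a median of 1.58 and, without the pair, of 1.0. The 30 that did not pass ran from CG7458 (1.52, adjusted p = 0.0666) to CG31678 (-0.54, adjusted p = 0.22), with a median of 0.48.

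Other transcripts moved in the same embryos. The maternal transcript smg stood at 128, 151, 1457 and 709 CPM in CRY2-ZLD NC10-12 and at 85.9, 98.3, 136 and 118 CPM in wild type NC10-12 (2.60 ± 0.53, adjusted p = 0.000312). It was also high in both NC10-14 groups, at 1281, 1899 and 1044 CPM in wild type and 1637, 1701 and 3755 CPM in CRY2-ZLD, against 162 to 358 CPM in wild type NC13-14 and 80.7 to 132 CPM in unlit CRY2-ZLD. CRY2-ZLD NC10-12 replicates 3 and 4, highest in their group for the members, were also highest for smg, while replicates 1 and 2 had smg near the wild-type range and members above it. The RNA of bcd, the maternal anterior determinant, stood at 10.0, 6.58, 293 and 377 CPM in CRY2-ZLD NC10-12 and at 1.05 to 1.75 CPM in wild type NC10-12 (7.14 ± 1.24, adjusted p = 5.56e-05). Another maternal RNA, Hsp83 (a heat shock chaperone), went the other way at NC10-12, from 380 to 777 CPM in wild type to 126 to 278 CPM in CRY2-ZLD (-1.42 ± 0.39, adjusted p = 0.00515). The zld transcript stood at 492, 1120, 1683 and 1137 CPM in CRY2-ZLD NC10-12 and at 401 to 483 CPM in wild type NC10-12 (1.35 ± 0.28, adjusted p = 0.000377), with every CRY2-ZLD embryo above wild type. The part of these transcripts, or of embryo stage, in the members' result was not tested.

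**Figure D4:**
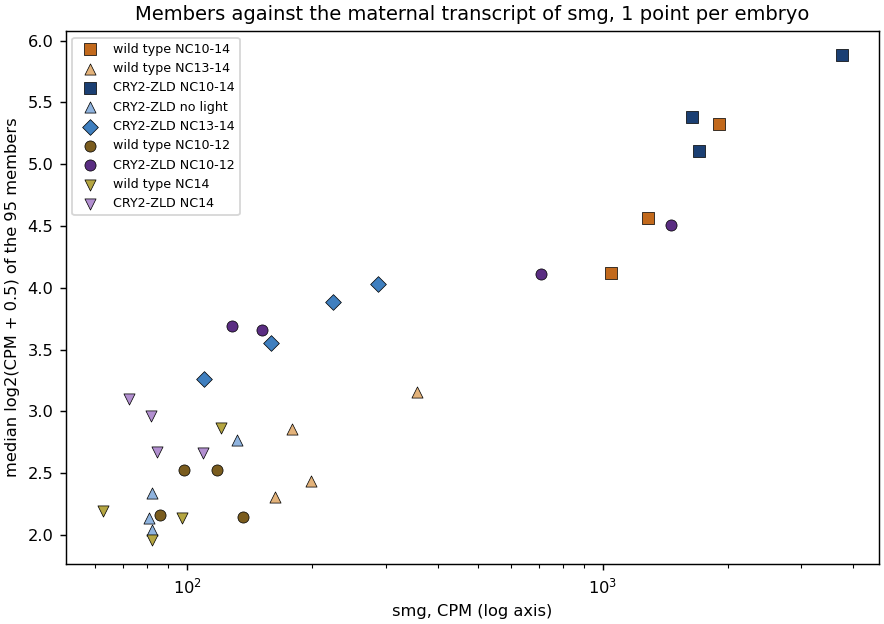
Median log2(CPM + 0.5) of the 95 members (y axis) against the CPM of smg (x axis, log scale), 1 point per embryo, with colour and marker by group. The NC10-14 embryos of both genotypes lie at the upper right, CRY2-ZLD NC10-12 replicates 3 and 4 (smg at 1457 and 709 CPM) lie near them, and wild type NC10-12 lies at the lower left; CRY2-ZLD NC10-12 replicates 1 and 2 lie above wild type at a like smg level.

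Gene lists give the same embryos' wider profile, to be read beside the 16.9% of all genes called higher and 16.5% called lower at NC10-12. These small lists were not tested against those shares, and most of their counts lay near them. Of 16 tested genes of maternal RNA clearance and translation control, 7 were higher in CRY2-ZLD NC10-12 (pum, twin, tral, wisp, Edc3, smg and tut) and 2 lower (plu and orb), with a median of 0.57. Of 28 tested maternal transcripts of oocyte and egg, 6 were higher (swa, cort, twe, bcd, BigH1 and tor) and 1 lower (Hsp83), with a median of 0.14, so most of that list did not pass. Of 26 early zygotic genes, 4 were higher (sc, amos, zen and nullo) and 6 lower (tld, eve, run, sisA, Nrt and Ocho), with a median of -0.39. Of 20 zygotic genes of later embryos, 3 were higher and 4 lower. Of the markers of other cells, 2 of 9 pole cell genes were higher (aub and vas) and 1 lower (tud), 0 of 2 tested follicle cell genes and 0 of 3 tested testis genes were called, and 2 of 7 markers of later embryo tissues were lower (Fas2 and srp). The 9 pole cell genes summed to 721 to 1314 CPM in CRY2-ZLD NC10-12 and 808 to 1105 CPM in wild type NC10-12, most of it from CycB, and to 2122 to 3108 CPM in wild type NC10-14 against 923 to 1191 CPM in NC13-14. The clearance genes summed to 3376 to 5637 CPM in CRY2-ZLD NC10-12 and 2133 to 2915 CPM in wild type NC10-12, and to 5530 to 7288 CPM in wild type NC10-14 against 2593 to 3760 CPM in NC13-14. Summed, the 10 markers of later embryo tissues stood at 351 to 525 CPM in wild type NC10-12 and at 31.7 to 127 CPM in CRY2-ZLD NC10-12. The sum also differed between wild type NC10-14 (32.5 to 121 CPM) and NC13-14 (294 to 433 CPM), the reverse of the members. Most of it in wild type came from srp, with means of 339 CPM at NC10-12, 60.8 CPM at NC10-14 and 254 CPM at NC13-14. In CRY2-ZLD NC10-12 the highest of these markers was elav, at 36.4 CPM. Over the 7 tested markers the median log2 difference at NC10-12 was -0.30, so the sums do not describe all 10 markers. The part of these lists in the members' result was not tested.

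With light during NC14 alone the members differed less between the genotypes. Of the 95, 12 rose in CRY2-ZLD and 1 fell, where 7.79% of all genes were called higher and 9.65% lower. The members' median was 0.34, that of all genes -0.03, and 75 members lay above 0. For 13 members every CRY2-ZLD embryo lay above every wild-type embryo, against 9.64% of all genes. The embryos held 1168, 894, 653 and 657 summed CPM in wild type and 1307, 1600, 1254 and 1351 in CRY2-ZLD, so that the groups did not overlap, though they lay close. The count of members that rose depended on wild type NC14 libraries, being 22 without replicate 1 (878 of all 9504 genes) and 7 without replicate 3 (542 of 9489). It was 5 when only these groups were fitted (296 of 8009). When libraries were scaled by ribosomal protein counts, the median of all genes moved from -0.03 to 0.42, and the calls over all genes from 742 higher and 919 lower to 1466 and 462. The members called then were 19 higher and 1 lower, with a median of 0.83. At NC10-12 this scaling moved the median over the genes tested from -0.01 to 0.19, the calls from 1613 higher and 1567 lower to 1751 and 889, and the members called to 66 higher and 0 lower.

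Of the 12 members that rose with light during NC14, 11 also rose with light during NC10-12, CG2921, CG32365, CG12567 and CG33181 among them. How many of the 742 genes called higher at NC14 were also called higher at NC10-12 was not counted. CG2921 stood at 5.53, 4.25, 3.90 and 1.99 CPM in wild type NC14 and at 12.2, 19.2, 14.7 and 22.3 CPM in CRY2-ZLD (1.96 ± 0.31, adjusted p = 2.60e-05). CG32816 (FBgn0052816, chromosome X, 316576 to 470726, minus strand) stood at 2.66, 0.655, 0 and 0 CPM in wild type and at 13.8, 16.6, 12.7 and 3.95 CPM in CRY2-ZLD. Here 2 wild-type embryos had no read of CG32816 and no CRY2-ZLD embryo overlapped wild type (3.58 ± 0.78, adjusted p = 0.00144, and 0.0614 when only these groups were fitted). CG6425 (FBgn0039449, chromosome 3R, 26715165 to 26717389, minus strand) stood at 30.4, 28.4, 12.7 and 12.9 CPM in wild type and at 43.1, 44.7, 59.2 and 39 CPM in CRY2-ZLD (1.0 ± 0.24, adjusted p = 0.00374, and 0.0662 when only these groups were fitted). The wild-type embryos of CG6425 fell into a higher and a lower pair, both below CRY2-ZLD. CG12567 stood at 28.1, 11.3, 3.78 and 10.8 CPM in wild type and at 56.3, 85.0, 29.4 and 78.5 CPM in CRY2-ZLD (2.04 ± 0.58, adjusted p = 0.0144), and CG32365 differed by 2.35 ± 0.70 (adjusted p = 0.019) with replicate 2 (18.4 CPM) as the high embryo.

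CG30392 was the member that fell. It stood at 4.23, 2.06, 1.2 and 4.07 CPM in wild type NC14 and at 0, 0.0623, 0 and 0.263 CPM in CRY2-ZLD NC14 (-5.26 ± 0.77, adjusted p = 9.72e-06). All CRY2-ZLD embryos lay below all wild-type embryos. It was also low in CRY2-ZLD without light, at 0.586, 0.571, 0.271 and 0.0722 CPM, and in CRY2-ZLD NC13-14, at 0.5, 0.602, 1.07 and 2.05 CPM. In CRY2-ZLD NC10-14 it reached 3.88, 2.54 and 6.23 CPM and in wild type NC10-14 8.26, 10.1 and 8.75 CPM, the wild-type embryos again all above CRY2-ZLD.

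**Figure D5:**
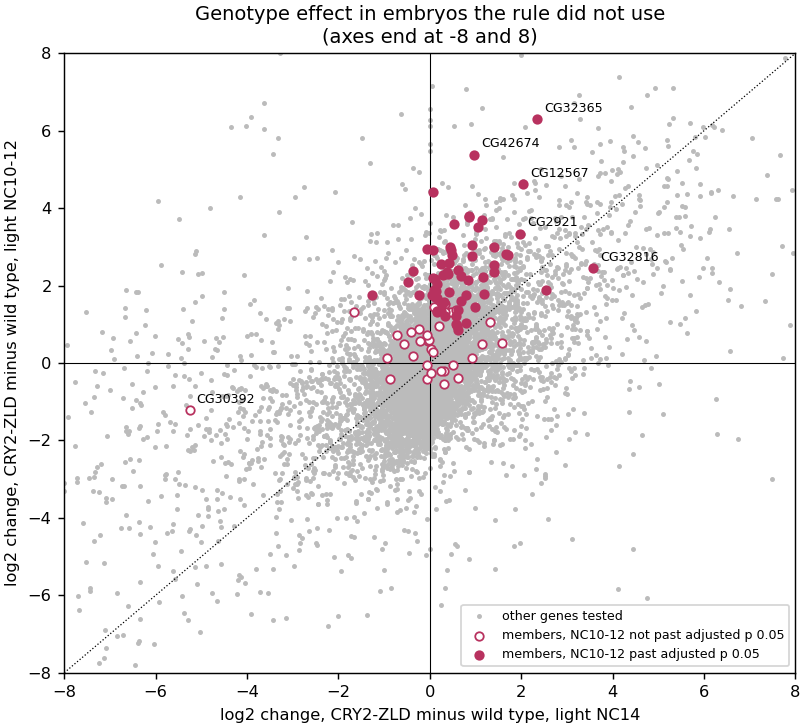
Log2 change between CRY2-ZLD and wild type with light during NC10-12 (y axis) against that with light during NC14 (x axis) for each gene tested; grey points are other genes, open circles are members that did not pass at NC10-12 and filled circles are members that did, and the dotted line marks equal change. Most members lie above 0 on the y axis and above the dotted line (82 of 95), with CG32365 highest (6.29) and CG30392 at the far left (-5.26).

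The difference between the genotype effects at NC10-12 and at NC14 was tested as an interaction. File labels numbered these windows as separate sets, so here too light window and set cannot be told apart. The effect was more positive at NC10-12 for 19 members, with CG30392 (less negative at NC10-12) among them, and less positive for 0, where 2.98% of all genes were called in the first direction and 1.87% in the second. The members' median difference was 1.19, that of all genes 0.05, and 82 members lay above 0. CRY2-ZLD NC10-12 replicates 3 and 4 weighed on this count, which was 3 without them (63 of all 9905 genes). It was 8 without replicate 3 alone (108 of 9486), 32 without replicate 1 (555 of 9489) and 29 without replicate 2 (401 of 9464). Without CRY2-ZLD NC14 replicate 1 it was 12 (126 of 9476), and without wild type NC14 replicate 1 it was 10 (167 of 9504). With ribosomal protein scaling it was 4 (53 of 9519). The calls over all genes moved in the same direction each time. In the same test 11 of the 26 early zygotic genes were called in the first direction and 0 in the second, with a median of 1.51. With light during NC14, 17 of those 26 fell in CRY2-ZLD and 0 rose, where 9.65% of all genes were called lower. Their median was -1.71, the reverse of the members' direction there. Of the 28 tested maternal transcripts, 2 (swa and bcd) were called in the first direction and 0 in the second, and of the 16 clearance genes 2 (pum and smg) and 0.

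CG14230 had the smallest p of the members in this test (2.32 ± 0.39, adjusted p = 0.00104). At NC14 it stood at 25.3, 20.5, 31.5 and 18.2 CPM in wild type and at 28.3, 43.5, 32.1 and 24.7 CPM in CRY2-ZLD, with the groups overlapping. CG17361 (FBgn0036395, chromosome 3L, 13997191 to 13998055, plus strand) has no intron and shares 18% of its exon bases with CG17359. At NC10-12 it stood at 4.16, 6.01, 5.84 and 6.92 CPM in wild type and at 25.3, 19.3, 41.7 and 30.0 CPM in CRY2-ZLD. At NC14 it stood at 7.46, 4.32, 7.34 and 6.10 CPM in wild type and at 6.71, 7.16, 2.80 and 5.58 CPM in CRY2-ZLD (difference of effects 2.76 ± 0.48, adjusted p = 0.00133). The CRY2-ZLD embryos of CG17361 were all high at NC10-12 and lay within the wild-type range or below it at NC14.

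CG6420 (FBgn0039451, chromosome 3R, 26719847 to 26725216, minus strand) stood at 3.49, 3.59, 2.35 and 3.29 CPM in wild type NC10-12 and at 14.1, 12.1, 39.6 and 26.6 CPM in CRY2-ZLD NC10-12. With light during NC14 its 8 embryos lay at 0.917 to 5.12 CPM, and the genotypes overlapped (difference of effects 3.01 ± 0.68, adjusted p = 0.0132). CG42674 (FBgn0261556, chromosome 3L, 20149614 to 20198317, minus strand), the longest of the named members in exon bases (10693), stood at 3.21, 2.33, 5.79 and 3.05 CPM in wild type NC10-12 and at 21.3, 57.0, 296 and 181 CPM in CRY2-ZLD NC10-12. It had the largest difference of effects among the members (4.41 ± 1.01, adjusted p = 0.0144). Without replicates 3 and 4 neither passed, at 1.94 (adjusted p = 0.191) for CG6420 and 2.28 (adjusted p = 0.289) for CG42674, and with ribosomal protein scaling CG6420 stood at 2.86 (adjusted p = 0.0546).

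Wild-type embryos lit during NC10-12 and during NC14 gave no call. By edgeR's quasi-likelihood test 0 of the 9519 genes and 0 of the 95 members passed, and the background was 0% in each direction. At an unadjusted p under 0.05 there were 445 genes and 2 members, CG30403 (1.42) and CG32816 (1.78), and DESeq2 called 3 genes higher and 6 lower, none of them members. The members' median was 0.07, with 49 above 0 and 46 below. Without wild type NC14 replicate 1, 8 genes were higher and 2 lower, with 0 members. By their file labels these groups were numbered as separate sets, so light window and set cannot be told apart.

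In embryos lit during NC13-14 the comparison with controls involves groups that chose the members, and is given as values. The CRY2-ZLD embryos held 3301, 2030, 2168 and 3017 summed CPM, above all wild type NC13-14 and all unlit CRY2-ZLD embryos. By member, all CRY2-ZLD NC13-14 embryos exceeded all wild type NC13-14 embryos in 49 (26.1% of all genes) and all unlit CRY2-ZLD embryos in 58 (15.6% of all genes). CG12567 stood at 250, 105, 125 and 106 CPM, CG32365 at 76.7, 25.4, 33.1 and 75.5 CPM, and CG2921 at 43.4, 24.4, 32.1 and 48.8 CPM in CRY2-ZLD NC13-14. Each of these was above every wild type NC13-14 embryo. Others did not separate: CG10492 stood at 218, 133, 115 and 243 CPM and CG13760 at 3.64, 1.48, 2.54 and 3.81 CPM, overlapping wild type NC13-14. Among the groups not used by the rule, 58 members had their highest mean in CRY2-ZLD NC10-12, 25 in CRY2-ZLD NC13-14, 9 in CRY2-ZLD NC14, 2 in wild type NC14 and 1 in wild type NC10-12. The shares of all genes by highest group were not counted, so these numbers are description only.

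The rule did not use gene structure directly, and differences in structure are given without a test. CPM are not divided by exon length, so the minimum of 5 CPM is more easily met by genes with long exons. The genes set beside the members did not all have to meet this minimum. Of the 95 members, 9 had no intron, or 9.47%, against 12.3% of the tested genes with a structure, 12.7% of the 2938 other CG genes tested and 46.2% of the 26 early zygotic genes listed. The median number of introns was 3 in the members and in all genes tested, 2 in the other CG genes and 1 in the early zygotic genes. The median longest intron was 354 bases in the members, 239 in all genes tested, 118 in the other CG genes and 64.5 in the early zygotic genes. The median exon length was 2330 bases in the members, 2039 in all genes tested, 1689.5 in the other CG genes and 1578.5 in the early zygotic genes. Encoded proteins had a median of 478 residues in the members, 470 in all genes tested, 387.5 in the other CG genes and 391 in the early zygotic genes. The members were longer in the median than the other CG genes tested. Those other CG genes lay nearer to the early zygotic genes in intron, exon and protein length. The part of the level minimum in the members' lengths was not tested.

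The members were spread over the chromosome arms, with 25 on 2L, 15 on 2R, 21 on 3L, 17 on 3R, 17 on X and 0 on 4, where 91 genes were tested. By share, 2L held 26.3% of the members and 17.6% of the genes tested, 2R held 15.8% and 20.4%, 3L held 22.1% and 19.5%, 3R held 17.9% and 24%, and X held 17.9% and 17.2%, with no test made. Among genes tested, 4 pairs of members were next to each other. CG11474 and CG2921 lie 94 bases apart on chromosome 2R (22071234 to 22073443 and 22073538 to 22075308), both on the minus strand. CG3632 and CG3679 lie 561 bases apart on chromosome X (16296671 to 16303308 and 16303870 to 16307377), both on the plus strand. The other pairs were CG7328 with CG42674 on 3L and CG4267 with CG9967 on 2L. Of the 95, 40 share exon bases with another annotated gene and 15 share over 10% of them, and counts of these are uncertain where no strand was used.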

How the data were processed

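The counts per gene were deposited by the authors for 34 libraries and were not normalised; per the file headers they came from featureCounts 1.5.3 with the FlyBase 6.20 annotation, with no strand, pairing or multi-mapping option. Trimmomatic 0.36, HISAT2 2.1.0 and assembly dm6 are named in the submitters' processing notes. Replicates are single embryos. Symbols and gene structure came from an Ensembl annotation, in which all 95 members have the same start and end; 132 genes had no symbol. CPM were computed from column sums. Genes kept by filterByExpr (minimum count 10), 9519 with 99.98% of counts and all 95 members among them, were fitted with edgeR 4.0.16 in R 4.3.3 (TMM, estimateDisp, glmQLFit, glmQLFTest) with 9 group means, and p-values were adjusted over all genes tested, with a threshold of 0.05. The 9 groups share 1 spread, with a common dispersion of 0.197, prior df of 5.47 and residual df of 25. All 95 also pass the filter without the NC10-14 groups. Alternatives were DESeq2 size factors, 85 ribosomal protein genes, no filter, DESeq2 1.42.0, only the groups compared, a replicate block and leaving out libraries. No pair of columns was identical (replicates differed by a chi-square of at least 38.5 per degree of freedom). The fit was tested on simulated data. Members and lists were chosen with earlier results of these data known. Genes were named as the 8 highest in wild type NC10-14, the 8 with the largest wild-type difference, the 4 with the smallest p in each test, the neighbours of the threshold and a few reference genes; CG30377, CG30403 and the members named only at the ends of a range were chosen after their values were seen.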

Additional observations from a re-analysis of the deposited data

Results flagged for a closer look

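Of 231 groups of 4 libraries examined for the named genes, 18 had a library whose gap to the others exceeded Dixon's limit, where chance gives about 1 in 20. In CRY2-ZLD NC10-12, replicate 2 was high for nos (91.1 CPM, the others 1.42 to 6.68) and CG32816 (20.6 CPM, the others 14.6 to 15.2). In CRY2-ZLD NC13-14, replicate 1 was high for CG12567 (250.0 CPM) and CG44005 (80.9 CPM), and replicate 2 was low for CG7530 (35.3 CPM, the others 62.2 to 63.2). In CRY2-ZLD NC14, replicate 2 was high for zld (619 CPM), CG44005 (18.7 CPM) and CG32365 (18.4 CPM), replicate 1 for CG7460 (3.38 CPM) and replicate 4 for CG13716 (0.632 CPM, the others 0). Unlit CRY2-ZLD replicate 1 was high for smg (132 CPM, the others 80.7 to 82.4). Wild type NC10-12 replicate 3 was high for CG32365 (2.95 CPM). Wild type NC13-14 replicate 4, the library of lowest total, was high for CG2991 (62.3 CPM, the others 37.3 to 38) and CG2921 (6.39 CPM). In wild type NC14, replicate 3 was high for Hsp83 (517 CPM) and low for His2Av (992 CPM, the others 2520 to 2650), and replicate 1 was high for CG18135 (20.1 CPM, the others 0 to 1.43) and CG13716 (1.54 CPM).

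The effect of genotype differed between light during NC10-12 and during NC14 by a test of the difference itself for 19 members, where 2.98% of all genes tested were called in that direction. The count was 3 without CRY2-ZLD NC10-12 replicates 3 and 4 (63 of all 9905 genes) and 4 with ribosomal protein scaling (53 of all 9519 genes). The log2 differences were 2.32 for CG14230, 2.76 for CG17361, 3.01 for CG6420 and 4.41 for CG42674. CG6420 and CG42674 did not pass without that pair (1.94 and 2.28).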

How the results depend on the processing

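Counts depend on the embryos behind them. At NC10-12, leaving out CRY2-ZLD replicates 3 and 4 together (chosen after seeing the data) gave 791 genes higher and 771 lower, with 36 members higher and 1 lower; without the 5 libraries these were 875, 998, 37 and 1. Ribosomal protein scaling gave 889 lower, and DESeq2 called 1 member lower. At NC14, ribosomal protein scaling gave 1466 genes higher and 462 lower with 19 members higher, and fitting only the groups compared gave 296, 410 and 5. Leaving out each library gave 542 to 878 genes higher and 708 to 957 lower, with 7 to 22 members higher and 1 to 2 lower.

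The difference of effects gave 53 genes higher and 36 lower with 4 members higher under ribosomal protein scaling. The same values were 94, 112 and 8 with only the groups compared, 75, 21 and 3 without the 5 libraries, 63, 22 and 3 without replicates 3 and 4, and 443, 354 and 30 with DESeq2. Leaving out each library gave 108 to 555 genes higher, 70 to 402 lower and 8 to 32 members higher. Wild type NC10-12 against NC14 gave 3 genes higher and 6 lower with DESeq2, and 0 to 8 higher and 0 to 2 lower over the libraries left out.

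The rule found 213 members with a wild-type threshold of 1 and 43 with 2, and 55 to 115 over the libraries left out. Other values of these counts moved by less than 1.5 times. Among the named genes 19 values lost their call and 0 reversed; the cause was not tested.

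Replicate numbers were shared by the groups, but same-numbered embryos did not deviate together at NC14 (correlations -0.10 to -0.02), and at NC10-12 only numbers 1 and 3 correlated best with their own. With the replicate block 63 members were higher and 0 lower at NC10-12 (1585 and 1605 genes), 12 and 1 at NC14 (698 and 911 genes), 19 and 0 for the difference (246 and 175 genes) and 0 for wild type.

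Groups hold 3 or 4 embryos, and members near 1 CPM rest on few counts, so a p above the threshold does not show equal levels.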
